A study of Mus musculus with 31 samples.

Results

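CD4+ cells taken before lymphoma were compared between a pair of genotypes of a mouse model of peripheral T cell lymphoma, in 6 of the 31 RNA sequencing libraries of the study. The fusion/fusion libraries TA023, TA024 and TA025 carry a genotype label that names Vav1Myo1ffl/wt;CD4CreERT2 (Vav1Myo1f) on both sides of a slash. The control/fusion libraries TA020, TA021 and TA022 have CD4-Cre-ERT2(WT) before the slash and the fusion genotype after it. Both groups have the status pre-lymphoma. Libraries TA018 and TA019, labelled CD4-Cre-ERT2(WT) alone with normal status, entered the same fit and are given as control. Libraries were assigned by these labels only. The sources used here do not say what is joined by the slash. All 8 libraries have the strain label C57B/6 and name CreERT2, a Cre recombinase that acts in the presence of tamoxifen, here driven by Cd4. The label fl/wt marks a conditional allele carried on a single chromosome copy. Age, tamoxifen treatment, the gate used to select cells, and whether libraries are separate animals are not given in the sources used here. The p-values therefore measure the spread between these libraries, which may be technical.

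Myo1f encodes a class I myosin, a single-headed actin motor of blood cells. Vav1 encodes the exchange factor that loads Rac with GTP after T cell receptor engagement, and the fusion joins parts of both genes. Helper T cells of the T helper 2 type depend on the transcription factor Gata3 and secrete the cytokines Il4, Il5 and Il13. Of these cytokines, Il4 directs B cells to the antibody classes IgE and IgG1. Il4 and Il13 direct macrophages to the alternatively activated state, marked in mice by Chil3, Retnla and Arg1.

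The promoters of 4 genes that rose in fusion/fusion cells are shown because these genes stand for the cytokine and the cell division results. Each sequence covers 250 bases before and 50 bases after an annotated start, on the strand of the gene, from RefSeq on GRCm38.p6. Only the first listed window of each gene was used. It need not hold the main start, and any other starts of a gene were not searched. Il4 (chr11:53617289-53617588, minus strand) and Il13 (chr11:53634653-53634952, minus strand) are neighbours on chromosome 11 and encode the signature T helper 2 cytokines. Capitals mark AGATAA, a motif of the family of factors to which the T helper 2 regulator belongs, and GGAAA, the core bound by NFAT factors. Both strands were searched.
Il4: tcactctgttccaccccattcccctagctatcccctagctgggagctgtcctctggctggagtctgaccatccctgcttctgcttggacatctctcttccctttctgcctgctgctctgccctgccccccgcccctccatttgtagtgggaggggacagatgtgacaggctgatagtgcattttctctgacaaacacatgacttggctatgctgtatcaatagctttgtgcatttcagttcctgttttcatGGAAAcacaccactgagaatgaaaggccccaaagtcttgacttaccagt
Il13: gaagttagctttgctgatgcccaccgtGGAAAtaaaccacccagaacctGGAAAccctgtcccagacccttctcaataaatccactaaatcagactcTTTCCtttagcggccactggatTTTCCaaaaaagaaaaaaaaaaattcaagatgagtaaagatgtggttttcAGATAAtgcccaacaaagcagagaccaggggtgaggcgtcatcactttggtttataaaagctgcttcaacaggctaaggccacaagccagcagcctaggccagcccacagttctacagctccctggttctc
The Il4 window shown held GGAAA in 1 place and no AGATAA, and the Il13 window held GGAAA in 4 places and AGATAA in 1. Plk1 (chr7:122159185-122159484, plus strand) encodes a mitotic kinase, and Ube2c (chr2:164769679-164769978, plus strand) the ubiquitin-conjugating enzyme of the anaphase-promoting complex. They are the cell division genes with the largest rise among those whose window held both CCAAT, the NF-Y box, and TTTGAA, the cell cycle homology element. Any members on 1 chromosome were left out of this choice. Capitals mark these motifs on either strand, and in Ube2c a forward and a reverse match of CCAAT overlap.
Plk1: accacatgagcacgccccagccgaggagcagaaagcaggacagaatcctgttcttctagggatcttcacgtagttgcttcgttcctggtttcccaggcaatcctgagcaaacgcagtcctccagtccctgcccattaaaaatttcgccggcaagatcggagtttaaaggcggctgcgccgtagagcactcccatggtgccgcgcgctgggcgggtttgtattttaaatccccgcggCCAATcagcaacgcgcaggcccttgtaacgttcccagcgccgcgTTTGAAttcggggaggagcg
Ube2c: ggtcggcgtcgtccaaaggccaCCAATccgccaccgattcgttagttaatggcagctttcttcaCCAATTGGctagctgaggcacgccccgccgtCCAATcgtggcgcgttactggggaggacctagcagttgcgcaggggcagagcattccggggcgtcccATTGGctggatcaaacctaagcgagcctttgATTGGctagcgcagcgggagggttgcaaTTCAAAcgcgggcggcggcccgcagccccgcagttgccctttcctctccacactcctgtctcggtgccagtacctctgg
CCAAT was present in 14 of 16 cell division promoters in the table (87.5%), against 37.9% of all 27025 promoters, and TTTGAA in 11 of 16 (68.8%), against 18.1% of all. AGATAA was present in 4 of 14 T helper 2 promoters (28.6%), against 11.4% of all, and GGAAA in 10 of 14 (71.4%), against 61.3% of all. These matches describe the windows and were not tested.

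The fusion/fusion libraries held 12632196 to 27371032 gene counts, control/fusion libraries 13235378 to 29257595, and control libraries 24513103 and 26007636. The share of reads aligned to a single place that fell in no gene did not overlap between the groups, at 7.28% to 8.46% in fusion/fusion and 8.74% to 9.82% in control/fusion libraries (exact two-sided permutation test, p = 0.1, the smallest that 3 against 3 libraries allow). Its part in the results was not tested. Of the 8 libraries, TA020 is the only one from a female by Xist and Ddx3y counts, and it stood apart from the other control/fusion libraries in macrophage and erythroid transcripts. Of 7 alpha-beta CD4 T cell markers, Cd3g alone passed the test (log2 fold change 0.23 ± 0.06, adjusted p = 0.030), though not without TA020, TA021, TA024 or TA025. Their summed level was 4246 to 4658 CPM in fusion/fusion and 3939 to 4429 CPM in control/fusion libraries. The sum of the CD8 genes Cd8a and Cd8b1 was 32.2 to 36.3 CPM in fusion/fusion and 30.5 to 38.4 CPM in control/fusion libraries. CPM are counts relative to the library total, scaled by TMM, and they compare libraries, not genes of different length. Transcripts of other cell types were present in all libraries and are given beside the results. Of 11 dissociation and stress genes 1 rose and 2 fell, the heat shock genes Hspa1b (log2 fold change -1.999 ± 0.48, adjusted p = 0.018) and Dnajb1 (log2 fold change -0.61 ± 0.11, adjusted p = 0.0045). Hspa1b did not pass without TA021 or TA024 (adjusted p = 0.057 and 0.069), and none of 10 mitochondrially encoded genes passed with edgeR or DESeq2, or at an unadjusted p under 0.05, while 1 was lower without a filter on low counts. In bulk libraries, fewer cells of a type and less RNA per cell cannot be told apart.

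Of 16257 genes tested, 1559 (9.59%) were higher and 1512 (9.3%) lower in fusion/fusion than in control/fusion libraries, by edgeR's quasi-likelihood F test with Benjamini-Hochberg adjustment at 0.05. These shares, 18.9% in either direction, are the background for the counts of gene lists given here. Large changes were mostly increases, with 481 genes (2.96%) higher by more than 2-fold and 161 (0.99%) lower. Many V segments of antibody genes are among these increases, such as Ighv14-4 and Igkv8-27 (log2 fold changes 2.96 and 2.07). The median log2 fold change of all genes tested was -0.0027. Without TA020 the counts were 1223 higher and 1085 lower. They were 813 and 769 without TA024, 958 and 981 without TA021, 994 and 851 without TA025, and 1024 and 1118 without TA022. Of the genes called without TA024, 805 of those higher and 747 of those lower were also called with it.

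**Figure D1:**
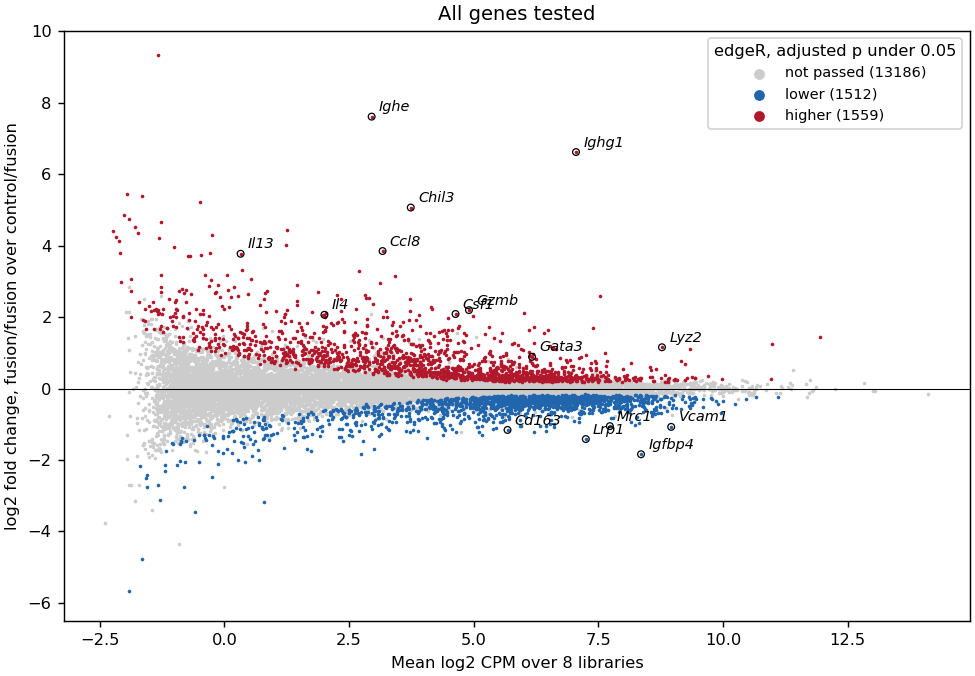
Log2 fold change of fusion/fusion over control/fusion libraries against mean log2 CPM over 8 libraries, 1 point per gene tested except Xist, coloured by the edgeR call at adjusted p under 0.05. The 1559 higher genes reach larger fold changes than the 1512 lower ones, with Ighe, Ighg1, Chil3, Ccl8 and Il13 labelled at the top and Igfbp4 and Lrp1 at the bottom.

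Vav1 fell in fusion/fusion cells, and Myo1f did not pass the test. Vav1 (ENSMUSG00000034116; chromosome 17, 57279100 to 57328031, plus strand; GENCODE M21 on GRCm38) had 162, 161 and 168 CPM in fusion/fusion libraries, against 207, 195 and 187 CPM in control/fusion and 237 and 225 CPM in control libraries. All fusion/fusion libraries were below all control/fusion libraries, which were in turn below both control libraries. The decrease was small (log2 fold change -0.26 ± 0.06, adjusted p = 0.013), and without TA024 it did not pass (adjusted p = 0.050). Myo1f (ENSMUSG00000024300; chromosome 17, 33555707 to 33607764, plus strand) had 143, 180.0 and 171 CPM in fusion/fusion libraries, against 149.9, 156 and 172 CPM in control/fusion and 83.0 and 70.7 CPM in control libraries. The pre-lymphoma groups overlapped and both lay above the control libraries. The log2 fold change of Myo1f was 0.04 ± 0.10 (adjusted p = 0.80, 95% confidence interval -0.17 to 0.26). Counts per gene do not separate fused from normal transcripts, and Myo1f is also expressed in myeloid cells. Cd4 did not pass the test, with 1018, 969.6 and 989 CPM in fusion/fusion libraries, against 963, 1050.3 and 1036 CPM in control/fusion and 1075 and 989.8 CPM in control libraries (log2 fold change -0.03 ± 0.06, adjusted p = 0.75).

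Most T helper 2 genes rose in fusion/fusion cells. Of 15 tested, 11 rose (background 9.59%) and 1 fell (background 9.3%), with a median log2 fold change of 0.82. The master regulator Gata3 (ENSMUSG00000015619; chromosome 2, 9857078 to 9890034, minus strand) had 94.0, 124 and 104 CPM in fusion/fusion libraries, against 57.5, 60.3 and 56.1 CPM in control/fusion and 56.2 and 53.9 CPM in control libraries. Its control/fusion libraries were at the level of the control libraries, and every fusion/fusion library was above them (log2 fold change 0.89 ± 0.09, adjusted p = 0.00040). Il4 had 11.5, 13.1 and 10.52 CPM in fusion/fusion libraries, against 2.32, 3.38 and 2.73 CPM in control/fusion and 1.58 and 0.941 CPM in control libraries (log2 fold change 2.06 ± 0.21, adjusted p = 0.00032). Il13 showed the largest rise of the list, 13.7-fold, with 6.04, 10.52 and 5.89 CPM in fusion/fusion libraries, against 0.750, 0.601 and 0.379 CPM in control/fusion and 0.208 and 0.0784 CPM in control libraries (log2 fold change 3.77 ± 0.36, adjusted p = 0.00028). For both cytokines the groups were ordered without overlap, fusion/fusion highest and control lowest. Areg, which encodes the growth factor amphiregulin, had 2.86, 3.20 and 3.69 CPM in fusion/fusion libraries, against 0.525, 0.901 and 0.310 CPM in control/fusion and 0.581 and 0.627 CPM in control libraries, so every fusion/fusion library stood above all the others (log2 fold change 2.59 ± 0.34, adjusted p = 0.0011). Nfil3, a basic leucine zipper factor, followed the same pattern with 19.6, 21.4 and 22.1 CPM in fusion/fusion libraries, against 7.497, 6.83 and 7.21 CPM in control/fusion and 7.84 and 4.43 CPM in control libraries (log2 fold change 1.55 ± 0.18, adjusted p = 0.00064). Il1rl1, the receptor of IL-33, had 47.2, 61.1 and 50.4 CPM in fusion/fusion libraries, against 22.6, 20.8 and 14.8 CPM in control/fusion and 7.51 and 7.45 CPM in control libraries (log2 fold change 1.46 ± 0.15, adjusted p = 0.00037). Smaller log2 fold changes were seen for the IL-25 receptor chain Il17rb (0.84 ± 0.21), the chemokine receptors Ccr8 (0.79 ± 0.19) and Ccr4 (0.64 ± 0.12), the cytokine Il10 (0.79 ± 0.14) and the transcription factor Maf (0.36 ± 0.09). Il17rb did not pass without TA024 (adjusted p = 0.072), Ccr8 not without TA022 or TA025 (0.058 and 0.061), and Maf not without TA021, TA022, TA023 or TA024 (0.053 to 0.079). Ccr3, a chemokine receptor of eosinophils and T helper 2 cells, was the member that fell (log2 fold change -0.73 ± 0.21, adjusted p = 0.038), with 47.8, 78.1 and 51.0 CPM in fusion/fusion and 123, 71.3 and 99.0 CPM in control/fusion libraries. That call was lost with DESeq2 (adjusted p = 0.069) and without TA020, TA022, TA023 or TA025 (0.083 to 0.12). Il4ra, the IL-4 receptor chain, did not pass (log2 fold change 0.23 ± 0.09, adjusted p = 0.098), except without TA023 (adjusted p = 0.0092). Il5 was too low to be tested, with 0.393, 1.88 and 0.157 CPM in fusion/fusion and 0.0749, 0.0750 and 0.0689 CPM in control/fusion libraries.

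Basophils, mast cells and eosinophils also make Il4 and Il13, and some of their markers were higher in the same libraries. The summed level of 10 markers was 16.5 to 24.1 CPM in fusion/fusion, 5.70 to 7.75 CPM in control/fusion and 5.56 to 6.64 CPM in control libraries. Of 6 that could be tested, Prg2 (log2 fold change 1.63 ± 0.35, adjusted p = 0.012), Hdc (log2 fold change 1.82 ± 0.23, adjusted p = 0.0010) and Epx (log2 fold change 2.22 ± 0.65, adjusted p = 0.041) rose. Prg2 and Epx encode granule proteins of eosinophils, and Hdc encodes the histamine-forming enzyme. Epx had 0.465, 2.02 and 1.10 CPM in fusion/fusion libraries, 0.375, 0.150 and 0.207 CPM in control/fusion libraries and no count in control libraries. The basophil protease Mcpt8 was too low to be tested, with 0.679, 0.348 and 0.314 CPM in fusion/fusion and 0.0749, 0 and 0.0345 CPM in control/fusion libraries. A count of 3, the limit that a count of 0 allows, corresponds to 0.110 to 0.237 CPM in fusion/fusion and 0.103 to 0.227 CPM in control/fusion libraries. Without TA024, Hdc was the only member that passed, and Prg2 had an adjusted p of 0.051. Epx did not pass without TA020, TA021, TA022, TA024 or TA025 either (adjusted p = 0.052 to 0.15). The part of these cells in the cytokine results was not tested.

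**Figure D2:**
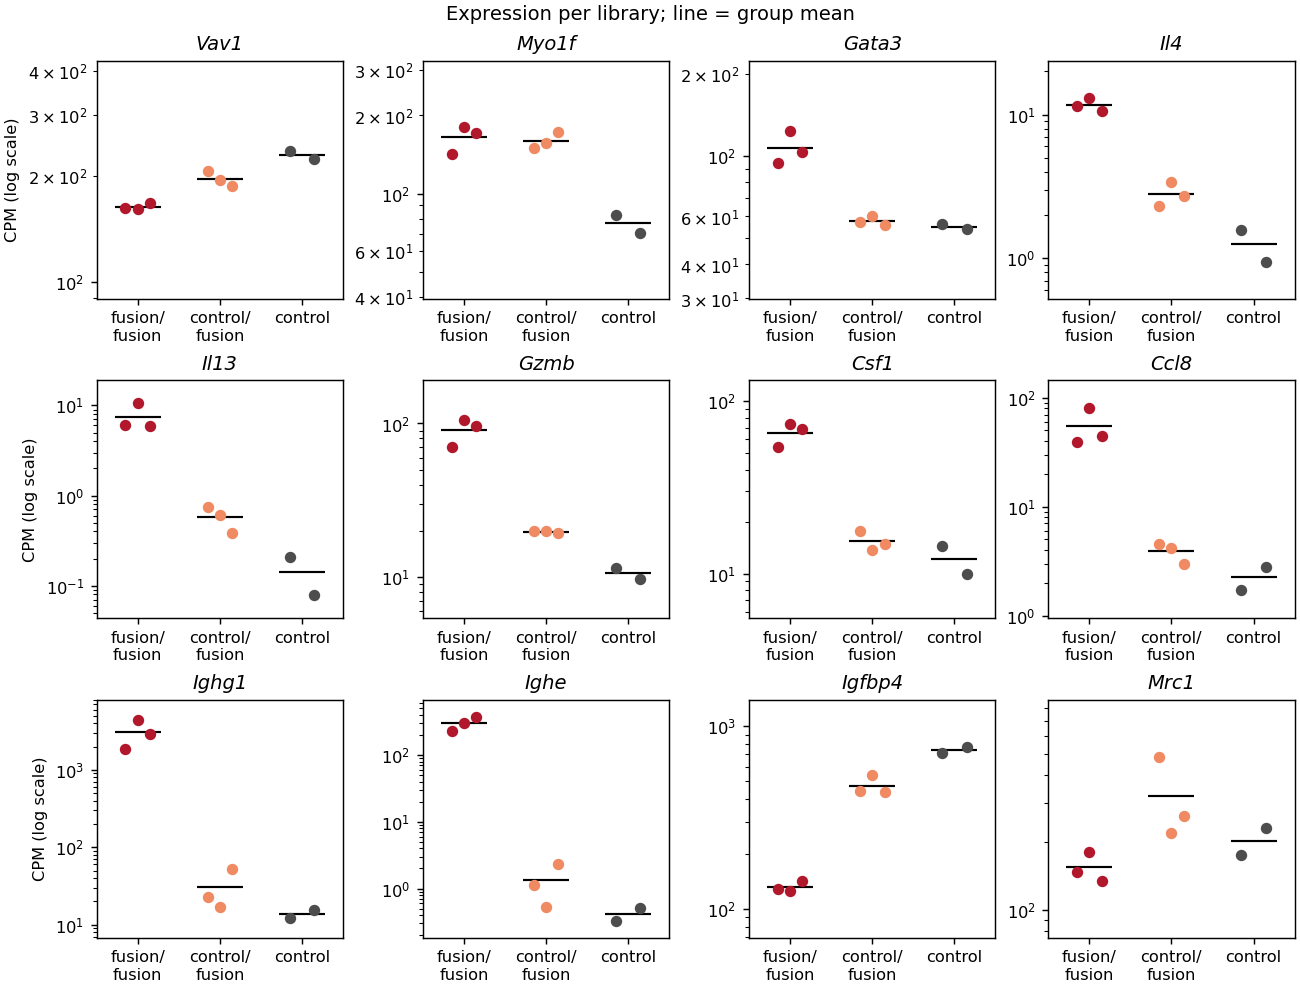
CPM of 12 genes in each library on log axes, with fusion/fusion libraries on the left, control/fusion in the middle and control on the right; the horizontal line is the group mean. Gata3, Il4, Il13, Gzmb, Csf1, Ccl8, Ighg1 and Ighe are higher in all 3 fusion/fusion libraries than in any other, Igfbp4 and Vav1 are lower, and Myo1f overlaps between the pre-lymphoma groups.

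The heavy chain genes of IgE and IgG1 showed the largest log2 fold changes among the genes named here. Ighe (ENSMUSG00000087642; chromosome 12, 113269260 to 113273248, minus strand), the constant region of IgE, had 232, 307 and 373 CPM in fusion/fusion libraries, against 1.12, 0.526 and 2.31 CPM in control/fusion and 0.332 and 0.510 CPM in control libraries. The difference was 195-fold (log2 fold change 7.61 ± 0.30, adjusted p = 1.8e-06), and the other 5 libraries held 7 to 67 Ighe counts each. Ighg1, the constant region of IgG1, had 1878, 4462 and 2939.6 CPM in fusion/fusion libraries, against 22.5, 16.97 and 51.7 CPM in control/fusion and 12.3 and 15.6 CPM in control libraries (log2 fold change 6.62 ± 0.47, adjusted p = 0.00010). Ighg2c (log2 fold change 2.60 ± 0.51, adjusted p = 0.0076) rose less, with 423, 1029.8 and 598 CPM in fusion/fusion and 82.2, 40.4 and 209.9 CPM in control/fusion libraries. Igha, the constant region of IgA, had 4589.6, 2986 and 3677 CPM in fusion/fusion libraries, against 2972, 2346 and 2494 CPM in control/fusion and 1054 and 3186 CPM in control libraries and did not pass (log2 fold change 0.53 ± 0.31, adjusted p = 0.27). It passed on the 6 pre-lymphoma libraries alone (adjusted p = 0.040) and without TA018 or TA019 (0.037 and 0.036). Ighd did not pass either (log2 fold change -0.16 ± 0.11, adjusted p = 0.35). Over the 11 immunoglobulin constant genes, 9 rose, and their sum was 17664 to 24193 CPM in fusion/fusion, 6507 to 8779.7 CPM in control/fusion and 6078 to 7447 CPM in control libraries. Without TA024, 5 of the 11 rose.

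Within the heavy chain counts of each library, the class make-up differed as well. Ighg1 made up 17.5%, 30.4% and 27.3% of heavy chain constant counts in fusion/fusion libraries, against 0.53%, 0.43% and 0.96% in control/fusion and 0.31% and 0.35% in control libraries. Ighe made up 2.16%, 2.096% and 3.47% in fusion/fusion libraries, against 0.026%, 0.013% and 0.043% in control/fusion and 0.0084% and 0.012% in control libraries. Neither class overlapped between the groups (exact two-sided permutation test, p = 0.1 for each, the smallest that 3 against 3 allow). Igha took 20.4% to 42.7% in fusion/fusion and 46.1% to 69.6% in control/fusion libraries (exact p = 0.1), and Ighm took 24.7% to 35.4% in fusion/fusion and 23.9% to 41.6% in control/fusion libraries (exact p = 0.7). No 50-base word of the Ighe transcripts and 0.39% of those of Ighg1 occur in transcripts of another gene.

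**Figure D3:**
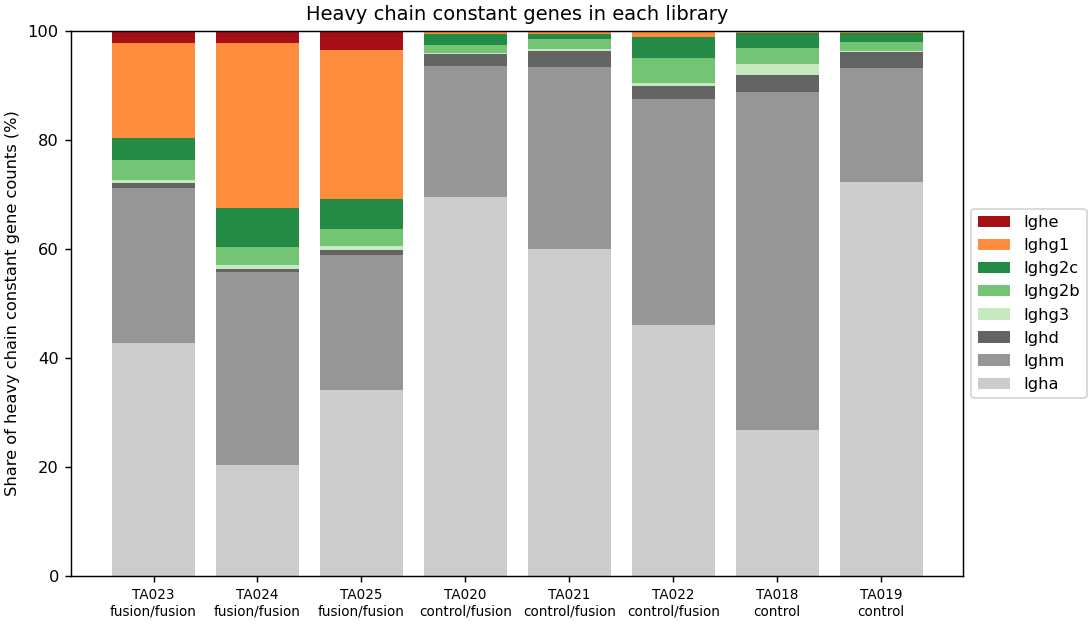
Stacked bars of the share of heavy chain constant gene counts taken by each gene, in percent, 1 bar per library, with fusion/fusion libraries on the left, then control/fusion, then control. Ighg1 and Ighe together form a visible block in the 3 fusion/fusion libraries (17.5% to 30.4% for Ighg1) and are near 0 in the other 5.

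Antibody genes are expressed by B cells and plasma cells. Of 7 plasma cell markers 6 rose, with sums of 1303 to 1496 CPM in fusion/fusion, 610.1 to 733 CPM in control/fusion and 445 to 683 CPM in control libraries. Jchain, which links IgM and IgA chains, had 1159.7, 1155 and 1011 CPM in fusion/fusion libraries, against 524, 455 and 562 CPM in control/fusion and 313 and 525 CPM in control libraries (log2 fold change 1.11 ± 0.16, adjusted p = 0.0020). On the log2 scale Mzb1, an antibody-folding cochaperone, rose by 2.01 ± 0.24, Derl3, of endoplasmic reticulum degradation, by 1.36 ± 0.22, the surface proteoglycan Sdc1 by 1.22 ± 0.16 and the transcription factor Xbp1 by 0.88 ± 0.09. Of 11 B cell markers, the adaptor Blnk rose (log2 fold change 0.45 ± 0.11) and the adaptor Bank1 fell (log2 fold change -0.40 ± 0.10). The B cell sum was 573 to 679 CPM in fusion/fusion, 562 to 656 CPM in control/fusion and 634 to 755 CPM in control libraries. The part of plasma cells in the antibody results was not tested. Blnk did not pass without TA021, TA022, TA023 or TA024 (adjusted p = 0.051 to 0.079), and Bank1 not without TA020, TA022, TA024 or TA025 (adjusted p = 0.054 to 0.068).

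Several chemokines and growth factors that act on monocytes, macrophages and granulocytes rose in fusion/fusion cells. Of 16 tested, 7 rose and none fell, with a median log2 fold change of 1.39. Csf1, the growth factor of macrophages, had 54.2, 73.3 and 68.6 CPM in fusion/fusion libraries, against 17.5, 13.7 and 14.8 CPM in control/fusion and 14.4 and 9.92 CPM in control libraries (log2 fold change 2.09 ± 0.16, adjusted p = 0.00011). Its control/fusion libraries were close to control, and all fusion/fusion libraries were above both groups. Ccl8 had 38.8, 79.9 and 44.5 CPM in fusion/fusion libraries, against 4.57, 4.13 and 2.97 CPM in control/fusion and 1.70 and 2.78 CPM in control libraries (log2 fold change 3.85 ± 0.30, adjusted p = 0.00017). Ccl8, Ccl12 and Ccl7 are monocyte-attracting chemokines, and all 3 were at a few CPM or less outside the fusion/fusion libraries. Ccl12 had 3.07, 5.99 and 3.69 CPM in fusion/fusion libraries, against 0.675, 0.376 and 0.379 CPM in control/fusion and 0.166 and 0.274 CPM in control libraries (log2 fold change 3.18 ± 0.36, adjusted p = 0.00059). Ccl1, the ligand of Ccr8, rose by 1.82 ± 0.27 on the log2 scale, Ccl24, a chemokine of eosinophils, by 2.16 ± 0.54, and Lif, a cytokine of the IL-6 family, by 0.82 ± 0.24. Ccl24 did not pass without TA021, TA024 or TA025 (adjusted p = 0.052 to 0.087), and Lif not without any single pre-lymphoma library (0.060 to 0.11) or with a term for depth (0.059). Ccl3 (log2 fold change 0.84 ± 0.34, adjusted p = 0.12) and Csf2 (log2 fold change 1.43 ± 0.55, adjusted p = 0.096) did not pass. Without TA024, 5 members rose and the median was 0.92, and without TA022, 5 rose and it was 0.87.

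Genes of alternatively activated macrophages moved in both directions. Of 11 tested, 5 rose and 2 fell. Chil3, a chitinase-like secreted protein, had 48.9, 258 and 37.3 CPM in fusion/fusion libraries, against 2.25, 3.15 and 4.24 CPM in control/fusion and 8.34 and 7.45 CPM in control libraries (log2 fold change 5.07 ± 0.76, adjusted p = 0.0024). Retnla had 11.4, 68.9 and 6.99 CPM in fusion/fusion libraries, against 0.0750, 6.01 and 0.138 CPM in control/fusion and 0.457 and 1.14 CPM in control libraries (log2 fold change 4.02 ± 1.15, adjusted p = 0.035). Arg1, arginase, had 24.2, 78.1 and 21.5 CPM in fusion/fusion libraries, against 8.32, 1.13 and 9.59 CPM in control/fusion and 1.04 and 1.18 CPM in control libraries (log2 fold change 2.63 ± 0.60, adjusted p = 0.014). In each of these, TA024 was more than 3 times as high as the other fusion/fusion libraries. Without TA024 the log2 fold change of Retnla was 2.31 (adjusted p = 0.21) and that of Arg1 1.81 (0.062), while Chil3 still passed. Retnla did not pass without TA020 or TA022 (0.070 and 0.092) or with DESeq2 (0.083) either. Clec7a, the beta-glucan receptor, was more even, with 46.7, 64.8 and 41.7 CPM in fusion/fusion libraries, against 16.6, 15.2 and 16.9 CPM in control/fusion and 9.30 and 7.29 CPM in control libraries (log2 fold change 1.65 ± 0.16, adjusted p = 0.00028). Mgl2, a lectin, rose by 2.16 ± 0.46 on the log2 scale. Without TA024, 3 members of this list rose and the median was 0.86 in place of 1.65. Chil3 shares 26.9% of its 50-base transcript words with Chil4 and Gm6522, so its level is uncertain. Chil4 was too low to be tested, with 0.0357, 0.487 and 0 CPM in fusion/fusion libraries and 0 CPM in every control/fusion and control library.

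The members that fell were the mannose receptor Mrc1 and the haemoglobin receptor Cd163. Mrc1 had 148, 182 and 135 CPM in fusion/fusion libraries, against 484, 219.5 and 262 CPM in control/fusion and 176 and 232 CPM in control libraries (log2 fold change -1.05 ± 0.25, adjusted p = 0.017). Cd163 had 27.7, 37.7 and 35.8 CPM in fusion/fusion libraries, against 115, 49.6 and 60.9 CPM in control/fusion and 55.0 and 64.8 CPM in control libraries (log2 fold change -1.16 ± 0.26, adjusted p = 0.013). Among macrophage markers, the log2 fold change was -1.07 ± 0.25 for the adhesion molecule Vcam1, -1.03 ± 0.23 for the iron exporter Slc40a1 and -1.05 ± 0.23 for the engulfment receptor Mertk. In all 5 genes TA020 was the highest library, and the fusion/fusion libraries were near or below the control libraries. Without TA020 the log2 fold changes were smaller in size but passed, at -0.64, adjusted p = 0.015 for Mrc1, -0.73, adjusted p = 0.0075 for Cd163, -0.68, adjusted p = 0.017 for Vcam1, -0.71, adjusted p = 0.023 for Slc40a1 and -0.68, adjusted p = 0.0062 for Mertk. Lyz2, lysozyme of macrophages and granulocytes, rose instead, with 836, 826 and 677 CPM in fusion/fusion libraries, against 393, 269.9 and 387 CPM in control/fusion and 276 and 254 CPM in control libraries (log2 fold change 1.15 ± 0.14, adjusted p = 0.00069), as did the monocyte gene Ly6c2 (log2 fold change 0.87 ± 0.20, adjusted p = 0.014). Over the 19 macrophage and monocyte markers, 2 rose and 3 fell, and the summed level was 3336 to 4478 CPM in fusion/fusion, 3606 to 7284 CPM in control/fusion and 2717 to 3521 CPM in control libraries. The complement gene C1qc and the pan-macrophage marker Adgre1 did not pass (log2 fold change -0.42 ± 0.27, adjusted p = 0.31 for C1qc and log2 fold change -0.81 ± 0.26, adjusted p = 0.053 for Adgre1). The median log2 fold change of the list was -0.53, and -0.08 without TA020. Without TA021, 6 members fell, Adgre1 among them (adjusted p = 0.013), and without TA025, 1 fell, with adjusted p-values of 0.055 for Vcam1 and 0.055 for Slc40a1. Mrc1 did not pass without TA025 either (adjusted p = 0.063). Ly6c2 did not pass without TA022 (adjusted p = 0.050). The part of macrophage RNA in the chemokine results was not tested.

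**Figure D4:**
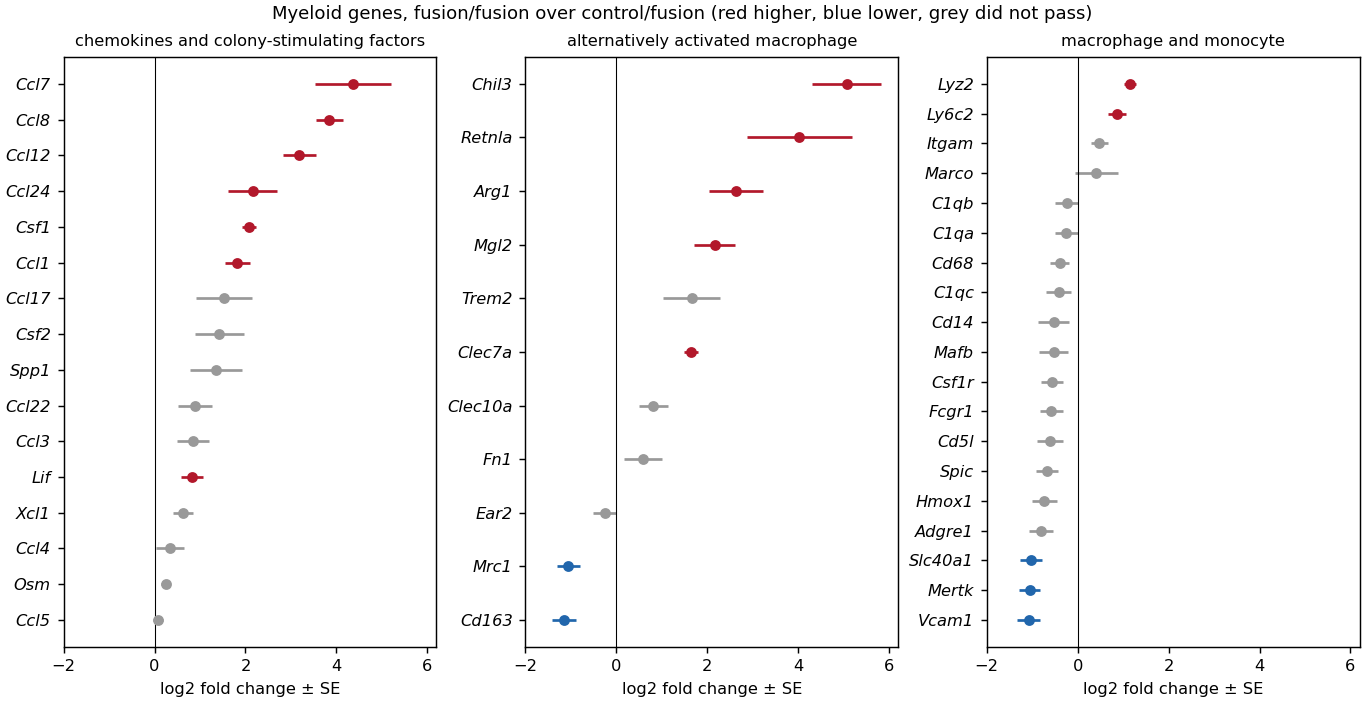
Log2 fold change of fusion/fusion over control/fusion libraries with its standard error for each tested member of 3 lists, red where higher, blue where lower and grey where the test was not passed. Chemokine genes are all above 0, alternatively activated macrophage genes range from Cd163 (-1.16) to Chil3 (5.07), and 15 of 19 macrophage and monocyte genes lie below 0, with Lyz2 and Ly6c2 higher.

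Of 11 neutrophil markers tested 6 rose, among them the matrix protease Mmp9 (log2 fold change 1.02 ± 0.10, adjusted p = 0.00032). The granule genes Ngp (log2 fold change 1.22 ± 0.31, adjusted p = 0.023) and Ltf (log2 fold change 1.17 ± 0.34, adjusted p = 0.035) rose as well, but did not pass without TA020, TA022 or TA024 (adjusted p = 0.052 to 0.082 for Ngp and 0.081 to 0.15 for Ltf). The neutrophil sum was 111 to 151 CPM in fusion/fusion, 63.8 to 76.0 CPM in control/fusion and 80.7 to 101 CPM in control libraries, and Mmp9 alone passed without TA024, while 3 members rose without TA020 or TA021. None of 14 erythroid markers passed with edgeR or DESeq2, and 2 had an unadjusted p under 0.05. The haemoglobin gene Hbb-bs had 187, 174 and 164 CPM in fusion/fusion libraries, against 292, 65.6 and 119 CPM in control/fusion and 27.4 and 66.1 CPM in control libraries, so TA020 exceeded every fusion/fusion library while TA021 and TA022 were below them. Without TA020 the median log2 fold change of the erythroid list was 1.09 and 5 members rose, and without TA025 1 rose. The summed erythroid level was 377 to 435 CPM in fusion/fusion and 155 to 655 CPM in control/fusion libraries, and 70.2 to 148 CPM in control libraries. Dendritic cell genes fell in 3 of 9, with log2 fold changes of -0.72 ± 0.13 for the integrin Itgax, -0.70 ± 0.22 for the transcription factor Zbtb46 and -0.59 ± 0.17 for the growth factor receptor Flt3. Xcr1, a chemokine receptor of cross-presenting dendritic cells, rose with 18.4, 14.4 and 17.1 CPM in fusion/fusion libraries, against 10.05, 8.19 and 8.21 CPM in control/fusion and 2.45 and 2.98 CPM in control libraries (log2 fold change 0.93 ± 0.14, adjusted p = 0.0026). Flt3 did not pass without TA020, TA021, TA023, TA024 or TA025 (adjusted p = 0.061 to 0.12), nor Zbtb46 without any single pre-lymphoma library (0.053 to 0.17) or with a term for depth (0.067). Of 11 stromal and endothelial markers, Vwf (log2 fold change -1.35 ± 0.31, adjusted p = 0.014) and Pecam1 (log2 fold change -0.35 ± 0.05, adjusted p = 0.0025) fell and none rose, while 1 rose with DESeq2 and 2 without TA020. The median log2 fold change of this list was nevertheless 0.47, with a largest value of 1.64. At an unadjusted edgeR p under 0.05, 3 members were higher and 2 lower. Their summed level was 204 to 217 CPM in fusion/fusion and 252 to 259 CPM in control/fusion libraries.

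Granzymes rose and perforin fell in fusion/fusion cells. Among 16 members of the T helper 1 and cytotoxic list, 8 were higher and 1 lower. The alternative runs gave 7 to 10 higher and 1 or 2 lower members. The number higher was 7 without TA021 or TA024 and 10 without TA022. Gzmb, granzyme B, had 70.1, 106 and 96.6 CPM in fusion/fusion libraries, against 19.9, 20.1 and 19.3 CPM in control/fusion and 11.5 and 9.76 CPM in control libraries (log2 fold change 2.19 ± 0.14, adjusted p = 4.8e-05). The control/fusion libraries lay within 1 CPM of each other, and the fusion/fusion libraries were all at least 3 times as high. Klrg1, an inhibitory receptor of terminally differentiated cells, had 29.5, 38.1 and 41.6 CPM in fusion/fusion libraries, against 8.77, 11.3 and 12.1 CPM in control/fusion and 6.89 and 6.82 CPM in control libraries (log2 fold change 1.75 ± 0.15, adjusted p = 0.00021). Gzma (log2 fold change 1.95 ± 0.36, adjusted p = 0.0062) and the cystatin Cst7 (log2 fold change 1.21 ± 0.14, adjusted p = 0.00055) rose too, and Ifng, interferon gamma, rose at a low level (log2 fold change 1.02 ± 0.25, adjusted p = 0.019), though not without TA021 or TA024 (adjusted p = 0.062 and 0.062). Tbx21, the T helper 1 transcription factor, rose by 0.55 ± 0.12 on the log2 scale. Prf1, the pore-forming protein perforin, fell, with 11.6, 13.9 and 11.1 CPM in fusion/fusion libraries, against 20.8, 18.5 and 17.9 CPM in control/fusion and 50.1 and 49.6 CPM in control libraries (log2 fold change -0.64 ± 0.10, adjusted p = 0.0029). Of 6 NK cell markers only Ncr1 rose (log2 fold change 1.07 ± 0.18, adjusted p = 0.0036), or 2 markers without TA025, and the NK cell sum was 51.7 to 60.3 CPM in fusion/fusion and 46.7 to 73.0 CPM in control/fusion libraries. Of 8 T helper 17 genes none rose and 2 fell. The receptor Ccr6 had 22.8, 15.6 and 16.7 CPM in fusion/fusion libraries, against 27.6, 31.8 and 31.8 CPM in control/fusion and 16.98 and 14.04 CPM in control libraries (log2 fold change -0.71 ± 0.14, adjusted p = 0.0082), so it was highest in control/fusion libraries. The number of T helper 17 genes that fell was 1 with either of the other scalings and without TA018, TA020, TA021, TA022, TA024 or TA025, and 3 without TA023.

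Of 10 follicular helper genes 7 rose, or 4 without TA024 and 5 without TA020, TA021 or TA025. These cells drive antibody class switching in germinal centres. The receptor gene Cxcr5 was among the 7, but did not pass with DESeq2 (adjusted p = 0.058). With edgeR it did not pass without TA020, TA021, TA023, TA024 or TA025 (adjusted p = 0.053 to 0.11). The cytokine gene Il21 had 20.2, 22.1 and 12.9 CPM in fusion/fusion libraries, against 6.60, 6.38 and 8.14 CPM in control/fusion and 11.2 and 4.04 CPM in control libraries (log2 fold change 1.38 ± 0.32, adjusted p = 0.016), and did not pass without TA021 or TA024 (adjusted p = 0.052 and 0.064). Ascl2, a basic helix-loop-helix factor, had 4.65, 3.41 and 3.69 CPM in fusion/fusion libraries, against 0.600, 0.601 and 0.655 CPM in control/fusion and 1.74 and 0.235 CPM in control libraries (log2 fold change 2.65 ± 0.51, adjusted p = 0.0069). On the log2 scale the nuclear factor Tox2 rose by 0.85 ± 0.20 and the coactivator Pou2af1, which B cells express too, by 0.66 ± 0.12. Bcl6, the central factor of these cells, did not pass (log2 fold change 0.22 ± 0.10, adjusted p = 0.15). Of 11 inhibitory receptor genes 4 rose and 1 fell. Tigit had 111, 112 and 119.8 CPM in fusion/fusion libraries, against 40.9, 45.7 and 54.9 CPM in control/fusion and 34.2 and 18.1 CPM in control libraries (log2 fold change 1.27 ± 0.18, adjusted p = 0.0020). Pdcd1, which encodes PD-1, had 125, 121 and 118 CPM in fusion/fusion libraries, against 55.8, 54.2 and 60.5 CPM in control/fusion and 43.9 and 17.6 CPM in control libraries (log2 fold change 1.09 ± 0.23, adjusted p = 0.011). For both, every fusion/fusion library was above every other library. Ctla4 rose by 0.64 ± 0.06 and Btla by 0.34 ± 0.07 on the log2 scale, while Cd244a, a receptor shared with NK cells, fell (log2 fold change -0.85 ± 0.09, adjusted p = 0.00055). Lag3 did not pass (log2 fold change 0.38 ± 0.18, adjusted p = 0.17), but did on the 6 libraries alone (adjusted p = 0.0077) and without TA018 or TA019 (0.0072 and 0.0076).

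The costimulator OX40, encoded by Tnfrsf4, had 161, 204 and 214 CPM in fusion/fusion libraries, against 88.7, 83.7 and 95.4 CPM in control/fusion and 51.8 and 41.1 CPM in control libraries (log2 fold change 1.11 ± 0.12, adjusted p = 0.00039). On the log2 scale Tnfrsf8, which encodes CD30, an antigen of several T cell lymphomas, rose by 1.12 ± 0.22, Tnfrsf9, which encodes 4-1BB, by 0.72 ± 0.12 and Icos by 0.62 ± 0.10. In all, 6 of 14 costimulators rose and 1 fell, or 7 and 2 with DESeq2. Whichever pre-lymphoma library was left out, only 4 costimulators rose, while 1 fell, or 2 without TA022. Regulatory T cell genes rose in 6 of 11. The integrin gene Itgae had 127, 151 and 137 CPM in fusion/fusion libraries, against 94.1, 65.2 and 53.9 CPM in control/fusion and 33.7 and 28.6 CPM in control libraries (log2 fold change 0.97 ± 0.17, adjusted p = 0.0046). Lrrc32, which encodes the TGF-beta anchor GARP, rose by 0.65 ± 0.09 and Tnfrsf18, which encodes GITR, by 0.62 ± 0.11 on the log2 scale. Foxp3, the transcription factor of regulatory T cells, rose less, with 242, 241 and 278 CPM in fusion/fusion libraries, against 198, 205 and 191 CPM in control/fusion and 120.5 and 105 CPM in control libraries (log2 fold change 0.36 ± 0.08, adjusted p = 0.010). Ikzf2, the factor Helios, did not pass (log2 fold change 0.36 ± 0.15, adjusted p = 0.13), but did on the 6 libraries alone (adjusted p = 0.038) and without TA018 or TA019 (0.037 and 0.038).

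Genes of naive and resting T cells fell in 12 of 16 and rose in none. Igfbp4, an insulin-like growth factor binding protein, had 128, 126 and 142 CPM in fusion/fusion libraries, against 442, 543 and 434 CPM in control/fusion and 711 and 773 CPM in control libraries (log2 fold change -1.84 ± 0.10, adjusted p = 1.4e-05). The groups were ordered without overlap, fusion/fusion lowest and control highest. Dapl1 had 17.3, 17.1 and 20.3 CPM in fusion/fusion libraries, against 38.9, 48.3 and 46.2 CPM in control/fusion and 65.1 and 78.1 CPM in control libraries (log2 fold change -1.30 ± 0.11, adjusted p = 0.00021). The lymph node homing receptor Ccr7 had 120.4, 128 and 138 CPM in fusion/fusion libraries, against 215, 238.4 and 235 CPM in control/fusion and 409 and 446 CPM in control libraries (log2 fold change -0.83 ± 0.07, adjusted p = 0.00021). The log2 fold change was -0.94 ± 0.07 for the actin crosslinker Actn1, -0.89 ± 0.11 for the repressor Bach2 and -0.66 ± 0.07 for the transcription factor Lef1, all of which fell. Klf2, a quiescence factor, did not pass (log2 fold change -0.24 ± 0.09, adjusted p = 0.082), except with DESeq2 (adjusted p = 0.035). The median log2 fold change was -0.47, and 11 or 12 members fell in every setting that left out a single library.

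Of 14 homing receptors and integrins 5 rose and 2 fell. Ccr2 had 158, 208 and 166 CPM in fusion/fusion libraries, against 80.6, 84.4 and 69.4 CPM in control/fusion and 51.5 and 41.7 CPM in control libraries (log2 fold change 1.19 ± 0.12, adjusted p = 0.00035). On the log2 scale Cxcr6 rose by 1.03 ± 0.11, Ccr1 by 1.05 ± 0.23 and the integrin Itgb1 by 0.76 ± 0.10. Cxcr4, the receptor of the bone marrow chemokine CXCL12, had 139.6, 124 and 154 CPM in fusion/fusion libraries, against 231, 221 and 195 CPM in control/fusion and 293 and 297 CPM in control libraries (log2 fold change -0.63 ± 0.09, adjusted p = 0.0016). The integrin Itga4 fell as well (log2 fold change -0.63 ± 0.15, adjusted p = 0.016). Itga4 did not pass without TA022 or TA025 (adjusted p = 0.053 and 0.054). Ccr1 and Ccr2 are also receptors of monocytes. Genes of the S100, annexin and galectin list, typical of effector and memory cells, rose in 11 of 13, with a median log2 fold change of 0.72. Which cells carried these transcripts here was not tested. S100a6 had 175, 237 and 189 CPM in fusion/fusion libraries, against 88.5, 92.2 and 94.4 CPM in control/fusion and 36.03 and 32.4 CPM in control libraries (log2 fold change 1.13 ± 0.10, adjusted p = 0.00028). Lgals1, galectin-1, had 319.9, 424 and 339 CPM in fusion/fusion libraries, against 189, 171 and 184 CPM in control/fusion and 93.4 and 97.5 CPM in control libraries (log2 fold change 0.99 ± 0.10, adjusted p = 0.00032). The log2 fold changes of galectin-3 (Lgals3), annexin A2 (Anxa2) and S100a4 were 0.90 ± 0.18, 0.85 ± 0.08 and 0.84 ± 0.15. Anxa1, of the same list, did not pass (log2 fold change 0.60 ± 0.20, adjusted p = 0.059), but did with DESeq2 (adjusted p = 0.022) and without TA025 (0.045).

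All 20 cell division genes rose in fusion/fusion cells, with a median log2 fold change of 1.01. Mki67, the proliferation marker, had 299.9, 292 and 289 CPM in fusion/fusion libraries, against 183, 177 and 155 CPM in control/fusion and 94.2 and 66.0 CPM in control libraries (log2 fold change 0.78 ± 0.11, adjusted p = 0.0020). Birc5, survivin, had 41.4, 51.5 and 45.5 CPM in fusion/fusion libraries, against 21.6, 21.2 and 16.7 CPM in control/fusion and 10.8 and 6.90 CPM in control libraries (log2 fold change 1.23 ± 0.16, adjusted p = 0.0010), and Ccnb1, cyclin B1, rose by 1.21 ± 0.16 on the log2 scale. Plk1, whose promoter is printed above, had 30.8, 38.5 and 31.6 CPM in fusion/fusion libraries, against 15.7, 15.3 and 13.8 CPM in control/fusion and 9.26 and 6.63 CPM in control libraries (log2 fold change 1.17 ± 0.13, adjusted p = 0.00058). Ube2c had 40.2, 52.2 and 44.7 CPM in fusion/fusion libraries, against 25.2, 22.2 and 16.9 CPM in control/fusion and 8.72 and 7.06 CPM in control libraries (log2 fold change 1.10 ± 0.15, adjusted p = 0.0014). For all 20, the lowest fusion/fusion library was above the highest control/fusion library, as for 19.4% of all genes tested. DNA replication genes rose in 15 of 18 with a median log2 fold change of 0.47. The largest was that of the ribonucleotide reductase subunit Rrm2 (92.3, 104 and 88.4 CPM in fusion/fusion libraries, against 47.9, 53.5 and 40.7 CPM in control/fusion and 27.2 and 16.3 CPM in control libraries; log2 fold change 1.01 ± 0.16, adjusted p = 0.0028). Without TA024, 18 cell division genes rose, and 6 of the replication genes. Without TA022, these counts were 19 and 8.

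Of 14 cyclins and inhibitors of the first gap phase, 7 rose and 1 fell, or 3 and 1 without TA024, 4 and 1 without TA021 or TA025, and 4 and 2 without TA022. Ccnd1, cyclin D1, had 30.2, 25.1 and 27.7 CPM in fusion/fusion libraries, against 48.2, 55.0 and 47.5 CPM in control/fusion and 29.1 and 23.8 CPM in control libraries, so the fusion/fusion libraries were at the control level and the control/fusion libraries above it (log2 fold change -0.85 ± 0.10, adjusted p = 0.00072). On the log2 scale the cell cycle inhibitors Cdkn2a and Cdkn2c rose by 1.47 ± 0.39 and 0.78 ± 0.15, and the cyclin Ccne2 by 0.78 ± 0.16. Cdkn2a did not pass without TA021, TA022, TA023, TA024 or TA025 (adjusted p = 0.050 to 0.093). Among 12 genes of the BCL2 family, the survival gene Bcl2 had 129.6, 119 and 133 CPM in fusion/fusion libraries, against 169.7, 219 and 188 CPM in control/fusion and 213 and 209.7 CPM in control libraries (log2 fold change -0.60 ± 0.09, adjusted p = 0.0023). The death effector Bak1 and the survival gene Bcl2l1 rose (log2 fold changes 0.40 ± 0.08 and 0.40 ± 0.10). Bcl2l1 did not pass without TA021, TA022, TA024 or TA025 (adjusted p = 0.053 to 0.093).

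Glycolysis genes rose in 9 of 18, with Pdk1, an inhibitor of pyruvate entry into mitochondria, the single member that fell (log2 fold change -0.41 ± 0.07, adjusted p = 0.0053). Tpi1, triosephosphate isomerase, had 128, 147 and 131 CPM in fusion/fusion libraries, against 87.1, 75.6 and 85.8 CPM in control/fusion and 67.5 and 56.3 CPM in control libraries (log2 fold change 0.71 ± 0.09, adjusted p = 0.00092), and Gapdh rose by 0.51 ± 0.09 on the log2 scale. Without TA024, 5 glycolysis genes rose. Endoplasmic reticulum folding genes, which plasma cells express strongly, rose in 9 of 12, with log2 fold changes of 0.73 ± 0.11 for Creld2 and 0.51 ± 0.08 for the chaperone Hsp90b1. Without TA021, TA022 or TA024, 4 of them rose. Nuclear genes of the respiratory chain rose in 7 of 18 by at most 0.32 on the log2 scale (Cox6c), and in none without TA021, TA024 or TA025. Asns, asparagine synthetase (log2 fold change 1.04 ± 0.16, adjusted p = 0.0026), and Psat1, of serine synthesis (log2 fold change 0.68 ± 0.10, adjusted p = 0.0025), were among 3 of 14 amino acid genes that rose, or 5 without TA023. Odc1, the rate-limiting enzyme of polyamine synthesis, had 212, 241 and 246 CPM in fusion/fusion libraries, against 124, 137 and 127 CPM in control/fusion and 79.2 and 60.1 CPM in control libraries (log2 fold change 0.85 ± 0.10, adjusted p = 0.00066), and was the only 1 of 14 MYC and ribosome biogenesis genes that rose, while 2 fell, or 1 with DESeq2 and without TA020, TA021, TA023, TA024 or TA025. None of 17 cholesterol genes passed with edgeR on the 8 libraries, and 2 had an unadjusted p under 0.05. With DESeq2, without TA020 and without a filter on low counts, 2 fell. Their median log2 fold change was 0.04.

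Signalling genes below the T cell receptor included members that rose and members that fell, as did all genes tested (9.59% higher and 9.3% lower). Among 22 Rac and actin regulators, 5 rose and 3 fell, or 4 and 1 without TA024 or TA025 and 7 and 5 with DESeq2. Smtn, which encodes smoothelin, an actin-associated protein of smooth muscle, had 51.2, 45.9 and 46.3 CPM in fusion/fusion libraries, against 18.4, 16.4 and 14.5 CPM in control/fusion and 3.28 and 3.10 CPM in control libraries (log2 fold change 1.55 ± 0.10, adjusted p = 4.8e-05), the largest change of the list that passed. Its groups were ordered without overlap, as were those of Actg2, the enteric actin gene, with 22.2, 21.3 and 20.1 CPM in fusion/fusion libraries, against 12.4, 15.5 and 13.9 CPM in control/fusion and 1.41 and 1.14 CPM in control libraries (log2 fold change 0.61 ± 0.11, adjusted p = 0.0063). The class I myosin Myo1e rose (log2 fold change 0.66 ± 0.11, adjusted p = 0.0038), and the Rac effector kinase Pak1 fell (log2 fold change -0.54 ± 0.15, adjusted p = 0.027), though Pak1 did not pass without TA020, TA024 or TA025 (adjusted p = 0.075, 0.050 and 0.090). Of 20 T cell receptor signalling genes 5 rose and 4 fell, with log2 fold changes of -0.45 ± 0.07 for Cd247, the zeta chain, and 0.39 ± 0.08 for the adhesion receptor Cd2. These counts were 2 and 3 without TA020, 2 and 2 without TA021 or TA024, and 1 and 2 without TA025. None of 12 NF-kB genes passed with edgeR or DESeq2, 1 had an unadjusted p under 0.05, and the median log2 fold change was -0.04. Of 12 transcription factors induced by the receptor, Batf (log2 fold change 0.68 ± 0.08, adjusted p = 0.00075) and Irf4 (log2 fold change 0.35 ± 0.07, adjusted p = 0.0073) rose, and the other 10 did not pass, though 1 of them fell without TA022. Of 14 JAK-STAT genes 4 rose and 2 fell, or 3 and 1 without TA021 and 2 and 1 without TA022, TA024 or TA025. The cytokine-induced genes Socs2, Pim1, Cish and Socs1 rose, with log2 fold changes of 0.57 ± 0.12, 0.52 ± 0.07, 0.46 ± 0.11 and 0.44 ± 0.13. Stat6, the signal transducer of IL-4, and the kinase Jak1 fell, with log2 fold changes of -0.27 ± 0.05 and -0.29 ± 0.07. Socs1 passed in no setting that left out a library other than TA023 (adjusted p = 0.050 to 0.16) and not on the 6 libraries alone (0.053), Cish not without TA022, TA024 or TA025 (0.056 to 0.058), and Jak1 not without TA021, TA022, TA024 or TA025 (0.058 to 0.085). The IL-6 receptor chains Il6ra (log2 fold change -0.58 ± 0.06, adjusted p = 0.00040) and Il6st (log2 fold change -0.66 ± 0.10, adjusted p = 0.0026) fell. Interferon-stimulated genes had a median log2 fold change of -0.01, with 1 of 14 higher and 1 lower. Without TA023 the median was 0.16, with 2 higher and none lower, and without TA024 it was -0.20, with none higher and 2 lower. Without TA020 or TA022 none passed in either direction.

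**Figure D5:**
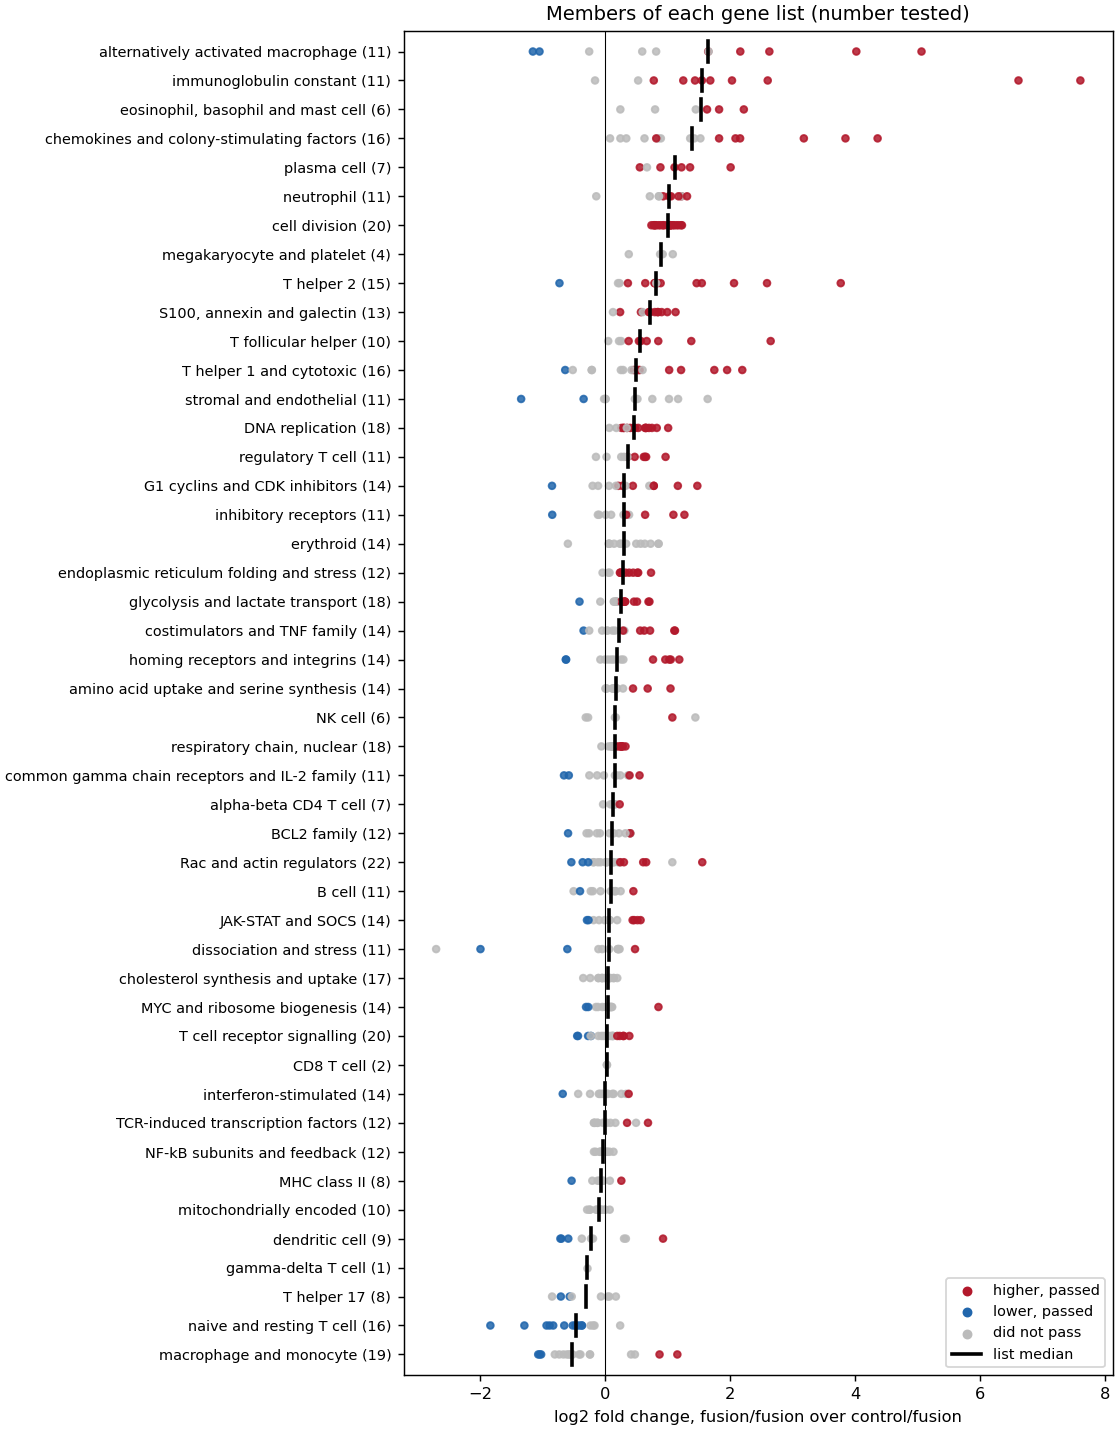
Log2 fold change of fusion/fusion over control/fusion libraries for every tested member of 46 gene lists, 1 row per list with the number tested in brackets; red and blue points passed the edgeR test, and the black bar is the list median. Lists are sorted by median, from alternatively activated macrophage (1.65) to macrophage and monocyte (-0.53).

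Outside these lists, among genes with a mean log2 CPM of at least 3 and no overlap between the groups, the largest increases included several of secreted and surface proteins. Slpi, a leukocyte protease inhibitor, had 104, 201 and 163 CPM in fusion/fusion libraries, against 44.0, 27.0 and 35.8 CPM in control/fusion and 38.6 and 51.4 CPM in control libraries (log2 fold change 2.13 ± 0.24, adjusted p = 0.00055). Ptgir, the prostacyclin receptor, had 26.7, 33.8 and 30.7 CPM in fusion/fusion libraries, against 8.32, 8.04 and 7.76 CPM in control/fusion and 8.76 and 6.12 CPM in control libraries (log2 fold change 1.92 ± 0.14, adjusted p = 0.00011). C3, the central complement component, had 233, 235 and 155 CPM in fusion/fusion libraries, against 105, 32.7 and 52.2 CPM in control/fusion and 26.9 and 21.3 CPM in control libraries (log2 fold change 1.73 ± 0.33, adjusted p = 0.0069). Penk, which encodes proenkephalin, had 40.6, 55.6 and 72.2 CPM in fusion/fusion libraries, against 18.3, 18.5 and 19.8 CPM in control/fusion and 7.84 and 5.68 CPM in control libraries (log2 fold change 1.56 ± 0.19, adjusted p = 0.00073). The fatty acid binding protein gene Fabp5 had 84.2, 110.1 and 80.6 CPM in fusion/fusion libraries, against 35.8, 30.7 and 28.7 CPM in control/fusion and 13.8 and 11.5 CPM in control libraries (log2 fold change 1.54 ± 0.13, adjusted p = 0.00021). On the log2 scale Epas1, a hypoxia-inducible factor subunit, rose by 1.55 ± 0.10, the decoy receptor Il1r2 by 1.48 ± 0.24 and Lyz1 by 2.24 ± 0.26. Lyz1 shares 16.1% of its 50-base transcript words with Lyz2 and is uncertain. Among the largest decreases by the same rule, Amigo2 had 7.61, 7.94 and 7.46 CPM in fusion/fusion libraries, against 18.8, 22.7 and 19.0 CPM in control/fusion and 39.7 and 40.2 CPM in control libraries (log2 fold change -1.39 ± 0.10, adjusted p = 0.00010). Sorcs2 had 7.04, 6.198 and 5.34 CPM in fusion/fusion libraries, against 14.6, 13.7 and 14.6 CPM in control/fusion and 27.0 and 28.9 CPM in control libraries (log2 fold change -1.19 ± 0.12, adjusted p = 0.00032). In both, control libraries were highest and fusion/fusion libraries lowest, without overlap. Lrp1, an endocytic receptor of macrophages, had 86.9, 101 and 86.8 CPM in fusion/fusion libraries, against 366, 171 and 196 CPM in control/fusion and 157 and 193 CPM in control libraries (log2 fold change -1.42 ± 0.24, adjusted p = 0.0039), and was highest in TA020. Without TA020 its log2 fold change was -1.01, adjusted p = 0.00046. Itgad, Slc45a3 and Wdfy3 fell by similar amounts (log2 fold changes -1.18 ± 0.25, -1.21 ± 0.29 and -1.21 ± 0.26), also with TA020 highest. Slc45a3 did not pass without TA023 (adjusted p = 0.051). Kit, the stem cell factor receptor, had 12.7, 7.38 and 12.3 CPM in fusion/fusion libraries, against 19.9, 32.6 and 22.5 CPM in control/fusion and 11.3 and 10.8 CPM in control libraries (log2 fold change -1.20 ± 0.22, adjusted p = 0.0054), highest in control/fusion libraries.

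No library was dominated by a single T cell receptor V gene. The most counted Trbv gene held 11.7% to 12.3% of Trbv counts in fusion/fusion and 10.7% to 12.4% in control/fusion libraries, with means that differed by 0.28 percentage points (exact two-sided permutation test, p = 0.9). In control libraries the share was 12.1% and 12.3%. The top Trav gene held 5.53% to 7.15% in fusion/fusion and 4.42% to 6.24% in control/fusion libraries (exact p = 0.3). V gene counts do not resolve clones, and neighbouring V genes share sequence.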

How the data were processed

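Bulk RNA of CD4+ cells was read as gene counts. Per the labels' protocols, the kits were RNeasy Micro for extraction, SMART-Seq v4 for amplification of polyA RNA and Nextera XT for the libraries, which were read on a HiSeq. The authors deposited raw counts per gene, unscaled, which the submitters' processing notes tie to HISAT2 2.1.0, HTSeq 0.5.4 and build mm10. The annotation release and strand setting are not given in the sources used here, so antisense and overlapping genes cannot be told apart. Each deposited table lists 55276 gene symbols, of which 53388 matched GENCODE M21, and closing entries of unassigned reads, which were left out of totals and tests and made up 27.2% to 28.3% of entries in fusion/fusion, 27.5% to 29.3% in control/fusion and 28.6% to 31.9% in control libraries. Genes were filtered with filterByExpr (minimum count 10, minimum total 15), scaled by TMM and fitted with edgeR 4.0.16 in R 4.3.3 on the 8 libraries, with group as the only term. Confidence intervals (95%) and floors (3 counts) cover counting error or model error only, since amplified reads are not independent molecules. The fit was tested on simulated data with known changes. No pair of replicates agreed within sampling noise (chi-square per gene 7.67 to 22.1). The genes chosen by rule were Vav1, Myo1f, Cd4, Gata3 and Mki67. To these came up to 5 called members of each of 46 lists, by size of change at a mean log2 CPM of at least 1. Outside the lists, the 15 highest and 15 lowest called genes at a mean of at least 3 with no overlap between groups were added. Only a part of the genes chosen by rule is printed by name. Further list members were chosen after their values were seen. A few list members enter the counts but are not reported by name here. The comparison and the lists were chosen with earlier results of these data known, so counts over lists are descriptions, and no set test was run. Alternatives were RLE scaling, scaling without receptor, immunoglobulin, haemoglobin and mitochondrial genes, no filter, the 6 libraries alone, DESeq2 1.42.0, leaving out each library, and, added after the data were seen, a term that separates the deep from the shallow libraries. The 23 other libraries of the series were not used.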

Additional observations from a re-analysis of the deposited data

How the results depend on the processing

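The main counts were 1559 genes higher and 1512 lower. They were 1553 and 1538 with RLE scaling, 1578 and 1527 with scaling without receptor, immunoglobulin, haemoglobin and mitochondrial genes, 1860 and 1985 without a filter, 1518 and 1438 on the 6 libraries alone, 1378 and 1473 with DESeq2, and 1409 and 1375 with the depth term. Leaving out single libraries gave 813 to 1571 higher and 769 to 1579 lower genes, lowest without TA024 (813 and 769), and also low without TA021 (958 and 981), TA022 (1024 and 1118) and TA025 (994 and 851). Of 243 genes examined by name, 215 passed, 158 higher and 57 lower. None of these 215 changed direction in any alternative run that tested them, and 153 passed in every run that tested them. Not all were tested in each run: with the main fit included, Ccl7 was tested in 11 and Epx in 13 of 15 settings. Among the genes examined by name that did not pass in the main fit, 6 changed sign when a library was left out. Their values on the log2 scale were as follows. Myo1f ranged from -0.025 without TA024 to 0.14, and was -0.00014 without TA020. Hbb-bs ranged from -0.23 without TA021 to 0.91, with -0.035 without TA022, and Hba-a1 from -0.12 without TA021 to 1.09. Cd8b1 ranged from -0.035 without TA020 to 0.13, with -0.012 without TA022, and Cd8a from -0.089 without TA022 to 0.13, with -0.081 without TA023. mt-Cytb ranged from -0.15 to 0.078 without TA022. Without a filter, Adgre1, Anxa1, C1qc, Ccl3, Hba-a1, Hspa1a, Igha, Ikzf2, Il4ra, Klf2, Lag3 and Srebf2, which did not pass in the edgeR fit of the 8 libraries with the filter, passed (adjusted p = 1.9e-24 to 0.048). Their p-values fell far at nearly the same log2 fold changes. Adgre1 had -0.81 and adjusted p = 1.9e-24 without the filter, and Igha 0.52 and 8.5e-10. The p-values and calls of the fit without a filter are therefore of uncertain weight. Also without a filter, 15 of 19 macrophage and monocyte markers and 1 of 14 erythroid markers were lower, and 3 and 6 were higher. The cause was not tested. No paired analysis was possible because the labels give these libraries no replicate numbers. Genes under about 1 CPM, such as Il5 and Mcpt8, are limited by depth. With 3 libraries in each group, single values cannot reach an exact p below 0.1.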

Other observations

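A further 7 genes were chosen after their values were seen, for a log2 fold change above 2. The test is that of edgeR across all genes, with Benjamini-Hochberg adjustment. Vdr, the vitamin D receptor, had 14.7, 19.0 and 17.3 CPM in fusion/fusion libraries, against 2.25, 2.70 and 3.17 CPM in control/fusion and 2.66 and 0.823 CPM in control libraries (log2 fold change 2.62 ± 0.31, adjusted p = 0.00066, edgeR). Hrh4, the histamine receptor of immune cells, had 5.61, 7.31 and 6.204 CPM in fusion/fusion libraries, against 1.499, 0.601 and 0.897 CPM in control/fusion and 0.374 and 0.549 CPM in control libraries (log2 fold change 2.68 ± 0.29, adjusted p = 0.00041). Lgals7, which encodes galectin-7, had 9.54, 22.8 and 18.3 CPM in fusion/fusion libraries, against 1.27, 0.676 and 0.517 CPM in control/fusion and 0.581 and 0.470 CPM in control libraries (log2 fold change 4.44 ± 0.40, adjusted p = 0.00026). In each of these genes the 3 fusion/fusion libraries stood above all others. Sostdc1, a secreted inhibitor of BMP and WNT signals, had 28.1, 33.6 and 30.7 CPM in fusion/fusion libraries, against 2.099, 2.103 and 4.55 CPM in control/fusion and 9.26 and 0.431 CPM in control libraries (log2 fold change 3.30 ± 0.66, adjusted p = 0.0082), with the control libraries far apart. Ccn4, a secreted matrix protein, had 8.76, 14.97 and 13.3 CPM in fusion/fusion libraries, against 1.57, 2.25 and 1.28 CPM in control/fusion and 0.706 and 0.314 CPM in control libraries (log2 fold change 2.89 ± 0.30, adjusted p = 0.00038), and Nrgn, neurogranin, 18.9, 34.1 and 29.1 CPM in fusion/fusion libraries, against 6.82, 4.66 and 4.42 CPM in control/fusion and 2.49 and 1.92 CPM in control libraries (log2 fold change 2.38 ± 0.24, adjusted p = 0.00032). Hc, which encodes complement component C5, had 5.54, 6.48 and 5.34 CPM in fusion/fusion libraries, against 1.12, 0.751 and 0.379 CPM in control/fusion and 0.374 and 0.314 CPM in control libraries (log2 fold change 3.06 ± 0.32, adjusted p = 0.00039). The cells that carry these transcripts cannot be told apart in bulk libraries.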
